A study of Homo sapiens with 8 samples.

Results

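The genes described here are the 10 human genes AGO1, AGO2, AGO3, AGO4, TNRC6A, TNRC6B, TNRC6C, DICER1, DROSHA and TARBP2, which encode the RNA-induced silencing complex (RISC) and the enzymes that make miRNAs. The set is defined by these names, of 22439 gene symbols on the array, and its rule uses no measured value, and every probe with a RefSeq accession of these genes was taken. The array held 13 such probes, of which 12 were measured, and all 10 genes had at least 1 measured probe.

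The cells were A431, a human line from an epidermoid (cutaneous squamous cell) carcinoma, transfected with 10 nM of the control miR-NC or of miR-634 and lysed after 24 h. RNA bound to AGO2 was taken by RNP immunoprecipitation with an AGO2 antibody (RIP), and total RNA served as the input. Input and RIP of both kinds of cells were each hybridized to 2 arrays (RIP-chip), which gives 4 groups, and the A431 background, the transfection and the time were shared by all 8 arrays. For the input arrays, the sample labels name a normal rabbit IgG antibody where the methods name total RNA, and the arrays are treated here as input. Whether the duplicates came from separate transfections is not stated, so that p-values measure only the spread between these arrays, which may be technical. A431 cells are a single cancer cell line, and the levels below are those of a bulk lysate, in which fewer cells and less RNA per cell cannot be told apart.

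An argonaute protein holds the miRNA and carries it to target mRNAs. The GW182 proteins, encoded by TNRC6A, TNRC6B and TNRC6C, bind argonaute and bring in the enzymes that shorten poly(A) tails, so that the target is silenced. Upstream, DROSHA cuts the hairpin out of the primary transcript in the nucleus, and DICER1, helped by the RNA-binding protein TARBP2, trims the exported hairpin to the duplex that is loaded into argonaute. The question asked of these arrays was whether the mRNAs of this machinery themselves shifted, in total RNA or in the RNA held by AGO2, when miR-634 was supplied.

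The miRNA that was supplied is shown with its seed (bases 2 to 8, in capitals), the stretch through which a miRNA pairs with most of its targets.
hsa-miR-634: aACCAGCAccccaacuuuggac
This mature sequence of 22 bases is that of the RefSeq annotation of GRCh38.p14, where it lies at chr17:66787132-66787153 on the plus strand, within the protein-coding gene PRKCA. Of 2370 mature miRNA names in that annotation, hsa-miR-634 was the only one with this seed. The mimic used in the cells was not sequenced, and transcript sequences were not used here, so that the genes were not searched for sites that pair with the seed.

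The share of spots well above background was 45.6% to 45.8% in the inputs, 33.6% to 34.5% in the miR-NC RIP and 40.0% in the miR-634 RIP. The arrays lay on 1 slide, with input and RIP in different slide rows and miR-NC and miR-634 in different slide columns, so that slide position and group cannot be told apart. All 7 squamous markers (KRT5, KRT14, KRT17, TP63, SFN, CDH1 and EGFR) were measured on every array, and none of PTPRC, PECAM1, COL1A2, MLANA and ALB, which mark other cell types, was. A PTPRC probe was well above background on 5 of the 8 arrays, with a highest intensity of 33.6, and no probe of the other 4 was on any. The level of a gene is given as log2 intensity relative to the array's 75th percentile, by the brightest measured probe, and the enrichment is the difference of RIP and input on that log2 scale. The change of enrichment is the enrichment in miR-634-overexpressing cells minus that in miR-NC-overexpressing cells. A difference was called when limma gave a Benjamini-Hochberg adjusted p below 0.05 over all 10959 measured genes. Levels of different genes come from different probes and were not compared with each other.

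Within the machinery, the changes of enrichment differed in direction. In miR-634-overexpressing cells, the enrichment of TNRC6A, AGO1, AGO2, DROSHA and DICER1 mRNA in the AGO2 RIP was lower and that of TNRC6B mRNA was higher, while the changes of AGO3, AGO4, TNRC6C and TARBP2 did not pass the test. The AGO3 result depends on the probe, since its change was called lower with the mean of its probes. For all 6 called genes but TNRC6A and TNRC6B, the direction turned when the arrays were scaled on the spike-in probes, a scaling that added 1.102 to the log2 change of enrichment of every gene. With 1 gene of 10 higher and 5 lower, the counts compare with 28.1% of all measured genes higher and 43.2% lower, and the median change of the 10 genes on the log2 scale was -0.26, beside -0.22 for all genes. A common shift of all genes leaves the value relative to the median gene as it is, and relative to that gene TNRC6A, AGO1 and AGO2 were lower, TNRC6B was higher, and DROSHA and DICER1 were not called.

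**Figure D1:**
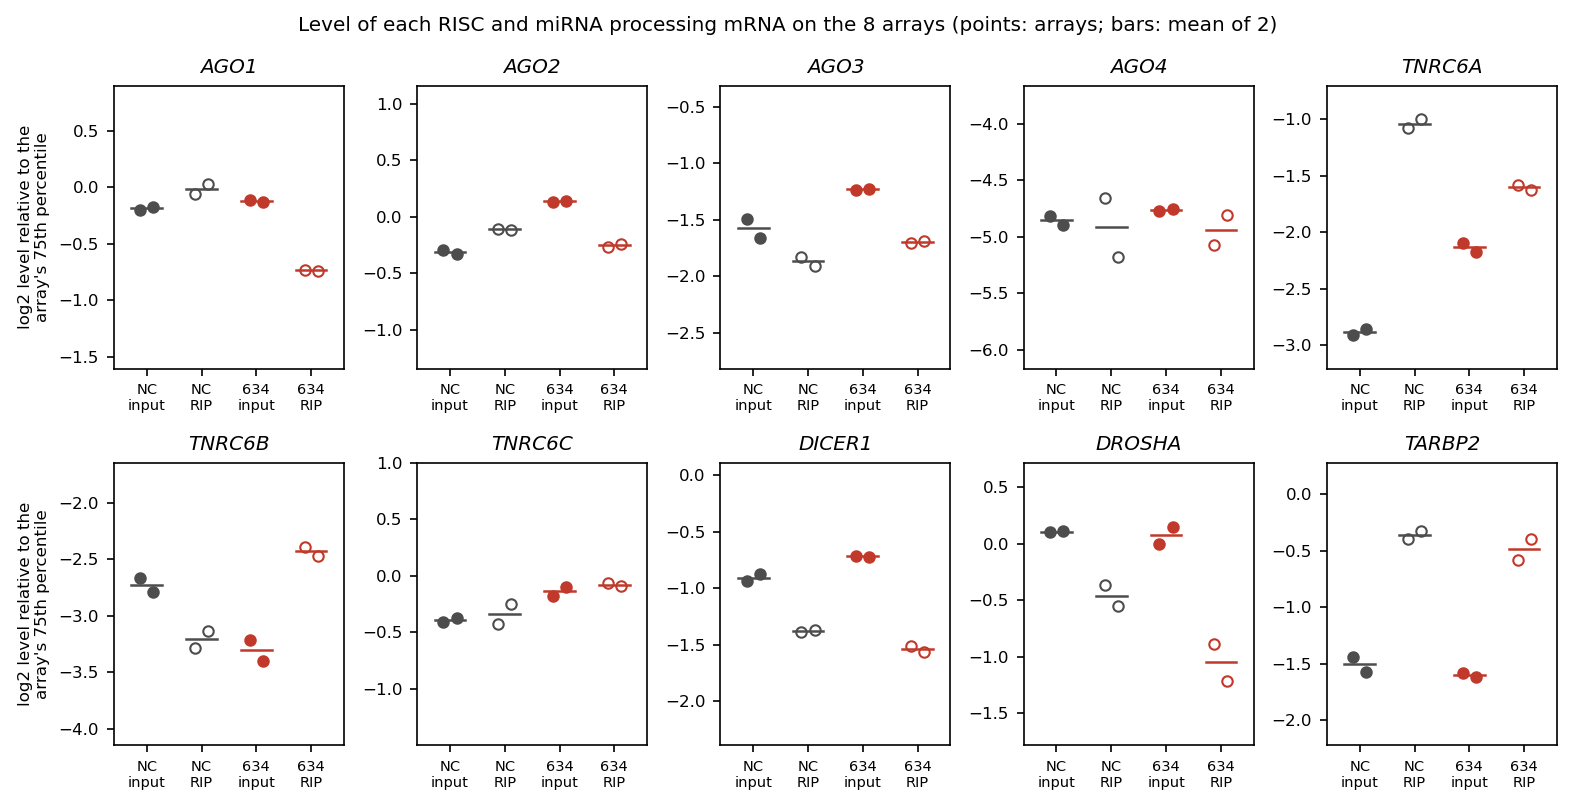
Level of the 10 mRNAs on the 8 arrays (vertical axis: log2 intensity relative to the array's 75th percentile; filled points: input; open points: RIP; gray: miR-NC; red: miR-634; bars: mean of 2 arrays; all panels span the same log2 range). With miR-634, TNRC6A is higher in the input and lower in the RIP, and TNRC6B the reverse, with TNRC6A lowest in the miR-NC input (-2.91 and -2.86) and TNRC6B highest in the miR-634 RIP (-2.39 and -2.47).

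AGO2, the argonaute that was immunoprecipitated and the only human argonaute known for efficient slicing of targets, had a higher mRNA level in total RNA and a lower enrichment in its own RIP in miR-634-overexpressing cells. On the log2 scale, AGO2 lay at -0.30 and -0.32 on the miR-NC input arrays and at 0.13 and 0.14 on those of miR-634, and in the RIP at -0.11 and -0.11 with miR-NC and at -0.26 and -0.24 with miR-634. The 4 groups did not overlap, and their order from the highest was miR-634 input, miR-NC RIP, miR-634 RIP and miR-NC input. The AGO2 input was 1.36-fold higher in miR-634-overexpressing cells (log2 0.45, standard error 0.04, limma adjusted p = 0.00121), a rise larger than that of 97.1% of the measured genes. On the spike-in scale this rise was not called, and its log2 value was 0.21. The log2 enrichment of AGO2 mRNA was 0.20 ± 0.02 (SD, n = 2) in miR-NC-overexpressing cells and -0.39 ± 0.01 (SD, n = 2) in miR-634-overexpressing cells. AGO2 enrichment thus changed by a log2 value of -0.59 (standard error 0.06, limma adjusted p = 0.000168), or 1.503-fold lower, and -0.37 relative to the median gene (adjusted p = 0.00152), while with the spike-in scaling it was 0.51 and not called. The RIP level itself was 0.14 lower on the log2 scale (log2 -0.14, adjusted p = 0.0184), a difference that was 0.04 relative to the median gene and 0.72 with the spike-in scaling. Most of the AGO2 change of enrichment on the main scale therefore lay in the input. The AGO2 probe was printed many times on each array, with 8 to 10 spots left after outliers were removed, and its values rest on the mean of these spots.

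AGO1, another argonaute that binds miRNAs, had a lower RIP level on its brighter probe in miR-634-overexpressing cells, and no input change was called. With the spike-in scaling, its log2 RIP change turned to 0.14 and was not called. In the inputs, AGO1 had log2 levels of -0.20 and -0.17 with miR-NC and of -0.12 and -0.13 with miR-634. Its RIP levels were -0.06 and 0.03 with miR-NC, and -0.73 and -0.74 with miR-634. The miR-634 RIP arrays thus stood below all other arrays, which lay within a narrow range. The input change was 0.06 on the log2 scale (95% confidence interval -0.05 to 0.18, limma adjusted p = 0.382). The RIP level was 1.65-fold lower (log2 -0.72, adjusted p = 1.92e-05), and the enrichment went from 0.17 ± 0.05 (SD, n = 2) to -0.61 ± 0.0022 (SD, n = 2), a change of enrichment of -0.79 (standard error 0.07, adjusted p = 9.62e-05), 1.72-fold lower. Relative to the median gene the AGO1 change of enrichment was -0.57 (adjusted p = 0.000448), and with the spike-in scaling it was 0.32 and not called. A second, dimmer AGO1 probe for the same transcript accession gave a change of enrichment of -0.15 (95% confidence interval -0.47 to 0.17, adjusted p = 0.334 over 16808 probes). On that probe, the log2 RIP level was -3.31 and -3.57 in miR-NC-overexpressing cells and -3.66 and -3.55 in miR-634-overexpressing cells, with overlapping arrays. The fall of AGO1 enrichment thus rests on the brighter probe, and whether the probes differ was not tested.

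AGO3 and AGO4 lie beside AGO1 on chromosome 1, where AGO4, AGO1 and AGO3 are consecutive protein-coding genes. AGO3 mRNA was 1.27-fold higher in the miR-634 input (log2 0.34, standard error 0.07, limma adjusted p = 0.014). The AGO3 arrays read -1.49 and -1.66 (log2 level) in the miR-NC input, -1.24 and -1.23 in the input with miR-634, -1.83 and -1.91 in the miR-NC RIP and -1.71 and -1.69 in the miR-634 RIP. On this probe, the miR-634 arrays stood above the miR-NC arrays in both fractions, although the miR-NC input arrays differed by more than the other pairs. The rise of the input was no longer called without the miR-NC input array numbered 2 (log2 0.26) or without either miR-634 input array (log2 0.35 and 0.34). This call was also lost with the spike-in scaling, with no filter on dim probes and with the methods' t-test, adjusted or not. For AGO3 enrichment the change was -0.17 (95% confidence interval -0.39 to 0.05, adjusted p = 0.143). With the mean of the probes it was -0.37 and called lower, and without the miR-NC input array numbered 1 it was -0.25. A second AGO3 probe is for the same accession, and its p-values are adjusted over 16808 probes. On it, the rise of the input was of the same size (log2 0.35, adjusted p = 0.0567, beside 0.0196 over probes for the brighter probe). The enrichment in miR-NC-overexpressing cells, however, was 0.31 (adjusted p = 0.0253) where the brighter probe gave -0.29, and the change of enrichment was -0.57 (adjusted p = 0.0105). In the RIP, the second probe read -2.51 and -2.26 with miR-NC and -2.54 and -2.66 with miR-634, a change of -0.22 (adjusted p = 0.0802 over probes). The brighter probe gave 0.17 (adjusted p = 0.0469 over genes and 0.0533 over probes), so that over probes neither RIP change was called. The RIP call of the brighter probe was lost without any 1 of the RIP arrays, at log2 values from 0.13 to 0.21. The directions of AGO3 enrichment in miR-NC-overexpressing cells and of the AGO3 RIP change therefore depend on the probe.

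AGO4 was represented by 1 dim probe, with log2 levels of -4.81 and -4.90 in the miR-NC input and -4.77 and -4.76 in the miR-634 input. Its RIP arrays were far apart, at -4.65 and -5.18 in miR-NC-overexpressing cells and -5.07 and -4.81 in miR-634-overexpressing cells. The change of enrichment was -0.46 from the first and 0.23 from the second array of each group. No AGO4 difference was called in any of the 5 comparisons, and the 95% confidence interval of the change of enrichment, from -0.70 to 0.47, would hold changes as large as that of AGO2.

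Of the 10 genes, the GW182 genes TNRC6A and TNRC6B showed the largest changes of enrichment and of the input on the main scale, in opposite directions. Each of these genes was read by 1 probe with 1 spot per array, so that no second probe could be compared. TNRC6A mRNA was 3.59-fold enriched in the AGO2 RIP of miR-NC-overexpressing cells (log2 1.85 ± 0.01, SD, n = 2, limma adjusted p = 9.47e-07), above 96.8% of the measured genes, and 1.45-fold enriched in that of miR-634-overexpressing cells (log2 0.53 ± 0.03, SD, n = 2). On the arrays, TNRC6A had log2 levels of -2.91 and -2.86 in the miR-NC input, -2.09 and -2.18 in the input with miR-634, -1.08 and -1.0 in the miR-NC RIP, and -1.58 and -1.62 in the miR-634 RIP. The groups did not overlap, and the distance between input and RIP shrank from both sides. The input rose 1.68-fold (log2 0.75, standard error 0.05, adjusted p = 0.000693), more than that of 99.6% of the measured genes, and the RIP level fell by 0.56 on the log2 scale (adjusted p = 0.000107). Enrichment thus changed by -1.31 (standard error 0.08, adjusted p = 1.72e-05), 2.48-fold lower, with -1.32 from the first and -1.30 from the second array of each group. Relative to the median gene it was -1.10 (adjusted p = 3.57e-05). With the spike-in scaling, the TNRC6A change of enrichment was -0.21 and the input change 0.51, and neither was called, while the RIP change turned to 0.30.

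On the main scale, TNRC6B mRNA was depleted in the RIP of miR-NC-overexpressing cells and enriched in that of miR-634-overexpressing cells. The depletion was not called with normexp and quantile normalization or with the methods' t-test after adjustment. Its log2 value reached -0.17 among the alternatives. With the spike-in scaling, the log2 enrichment in miR-634-overexpressing cells turned to -0.61. Log2 levels of TNRC6B were -2.67 and -2.80 in the miR-NC input, -3.22 and -3.40 in the input with miR-634, -3.28 and -3.14 in the miR-NC RIP, and -2.39 and -2.47 in the miR-634 RIP. The miR-634 input and the miR-NC RIP overlapped, below the miR-NC input and the miR-634 RIP. The log2 enrichment was -0.48 ± 0.20 (SD, n = 2, limma adjusted p = 0.00218) in miR-NC-overexpressing cells and 0.88 ± 0.07 (SD, n = 2, adjusted p = 8.15e-05) in miR-634-overexpressing cells. TNRC6B enrichment thus changed by 1.36 (standard error 0.12, adjusted p = 0.000117), 2.56-fold higher, and 1.57 relative to the median gene. The input was 1.49-fold lower (log2 -0.58, standard error 0.09, adjusted p = 0.00637), and the RIP level rose 1.71-fold (log2 0.78, adjusted p = 0.000216). Only 2.60% of the measured genes had a lower input change. TNRC6B kept the direction and the call of its change of enrichment under every alternative that was run, with log2 values from 0.85 with normexp and quantile normalization to 2.46 with the spike-in scaling. TNRC6A and TNRC6B moved in opposite directions in the input, in the RIP and in the enrichment, and the difference between the genes was not itself tested.

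TNRC6C, the remaining GW182 gene, rose in both fractions, and no change of its enrichment was called. It read -0.41 and -0.38 (log2 level) in the miR-NC input, -0.18 and -0.10 in the input with miR-634, -0.43 and -0.25 in the miR-NC RIP and -0.07 and -0.09 in the miR-634 RIP. The miR-634 arrays stood above the miR-NC arrays in each fraction. The input was 1.19-fold higher (log2 0.26, limma adjusted p = 0.0419) and the RIP level 1.198-fold higher (log2 0.26, adjusted p = 0.0122). The input call was lost without any 1 of the input arrays, at log2 values from 0.22 to 0.29. Enrichment changed by 0.01 (95% confidence interval -0.23 to 0.24). A second TNRC6C probe stayed below the limit for well above background on all 8 arrays, with intensities between 4.06 and 5.31, and gives no level.

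**Figure D2:**
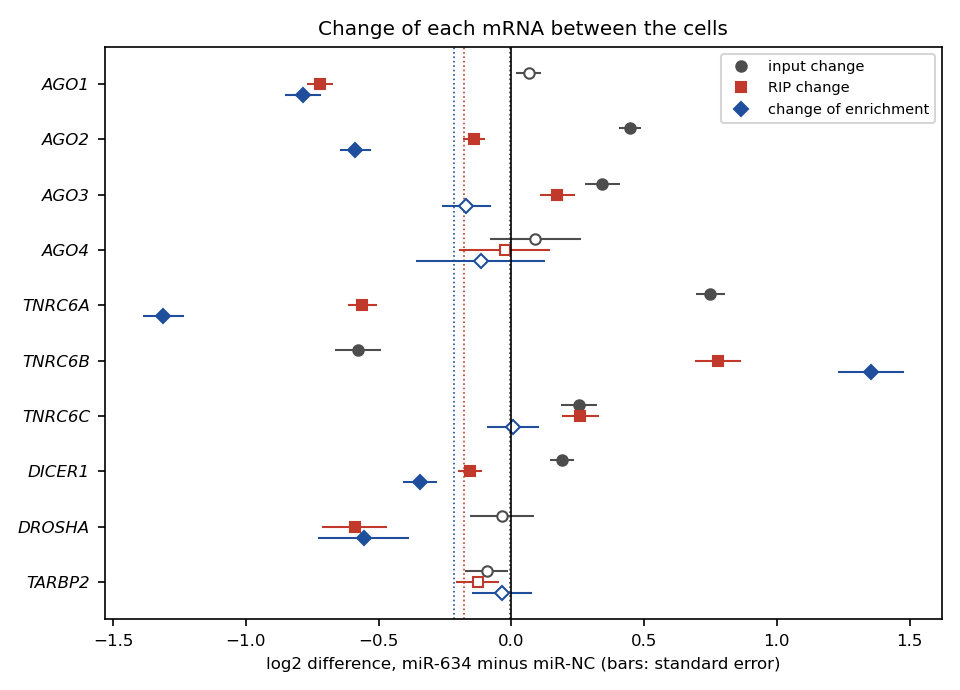
Differences between miR-634- and miR-NC-overexpressing cells (horizontal axis: log2 difference; gray circles: input; red squares: RIP; blue diamonds: change of enrichment; bars: standard error; filled: called by limma; dotted lines: the median of all genes for each quantity). TNRC6A and TNRC6B lie at the opposite ends, at -1.31 and 1.36 for the change of enrichment. With the spike-in scaling, the RIP values of all genes lie 0.86 and the changes of enrichment 1.102 to the right. Both quantities then turn positive for AGO1, AGO2, AGO4, DICER1, DROSHA and TARBP2, as do the change of enrichment of AGO3 and the RIP change of TNRC6A.

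Of the processing genes, DROSHA and DICER1 mRNAs were depleted in the AGO2 RIP in both kinds of cells and TARBP2 mRNA was enriched in both. Each of these genes, too, was read by 1 probe with 1 spot per array, without a second probe to compare. DICER1, which makes the mature duplex, had log2 levels of -0.93 and -0.88 in the miR-NC input, -0.71 and -0.72 in the input with miR-634, -1.39 and -1.37 in the miR-NC RIP, and -1.51 and -1.56 in the miR-634 RIP. The input was 1.14-fold higher (log2 0.19, limma adjusted p = 0.0288), a call that was lost when any 1 input array was left out, at log2 values from 0.16 to 0.22. The log2 enrichment was -0.47 ± 0.03 (SD, n = 2) in miR-NC-overexpressing cells and -0.82 ± 0.03 (SD, n = 2) in miR-634-overexpressing cells. The DICER1 change of enrichment, -0.35 (standard error 0.06, adjusted p = 0.00292), was not called relative to the median gene (log2 -0.13, adjusted p = 0.117), and it turned to 0.76 with the spike-in scaling. Its call was also lost with the 75th percentile over all probes and with the authors' processed values.

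DROSHA, the nuclear enzyme, did not differ detectably between the inputs. Its log2 level was 0.11 and 0.11 in the miR-NC input and -0.0048 and 0.15 in that of miR-634, which overlap. The RIP level was -0.37 and -0.55 in miR-NC-overexpressing cells and -0.89 and -1.21 in miR-634-overexpressing cells, the widest gap between replicates in a miR-634 group of these 10 genes. DROSHA had the strongest depletion of the 10 genes in both kinds of cells, with log2 enrichments of -0.57 ± 0.13 (SD, n = 2) and -1.12 ± 0.34 (SD, n = 2). DROSHA enrichment changed by -0.56 (standard error 0.17, limma adjusted p = 0.0247), which was -0.34 and not called relative to the median gene (adjusted p = 0.124) and 0.55 and not called with the spike-in scaling. It was also not called without either miR-NC input array, without the miR-NC RIP array numbered 1 or without the miR-634 input array numbered 2. With no filter on dim probes, and with the methods' t-test, adjusted or not, the DROSHA change was not called either.

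TARBP2, the partner of DICER1, was enriched in the RIP of both kinds of cells, and no change of its enrichment was called. TARBP2 had log2 levels of -1.43 and -1.57 in the miR-NC input, -1.58 and -1.61 in the input with miR-634, -0.40 and -0.32 in the miR-NC RIP, and -0.58 and -0.39 in the miR-634 RIP. All RIP arrays stood above all input arrays, and the RIP arrays of the different cells overlapped. TARBP2 mRNA was 2.21-fold enriched in miR-NC-overexpressing cells (log2 1.14 ± 0.15, SD, n = 2, limma adjusted p = 2.19e-05) and 2.16-fold in miR-634-overexpressing cells (log2 1.11 ± 0.16, SD, n = 2, adjusted p = 1.58e-05). For TARBP2 the change of enrichment was -0.03 (95% confidence interval -0.31 to 0.24). On the spike-in scale, the log2 enrichments of all 10 genes were below 0 in both kinds of cells, and those of TARBP2 were -1.44 and -0.37.

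**Figure D3:**
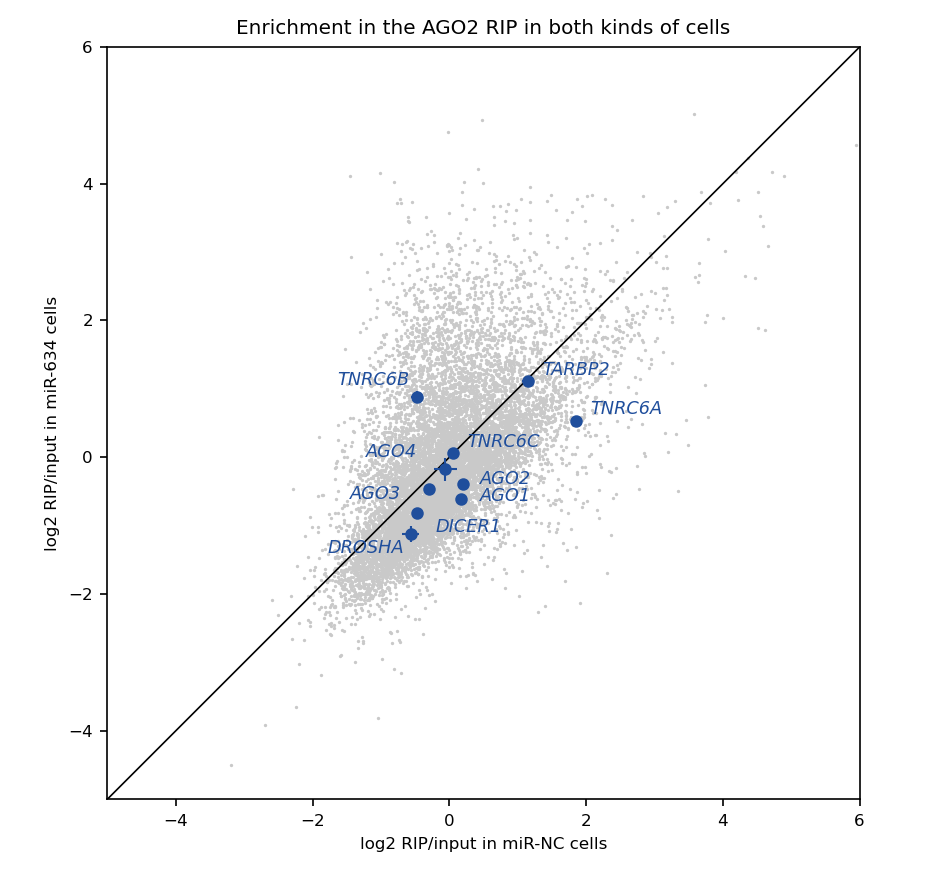
Log2 enrichment (RIP/input) in miR-NC-overexpressing cells (horizontal axis) and in miR-634-overexpressing cells (vertical axis) for all 10959 measured genes (gray) and the 10 genes of the machinery (blue, with standard errors). TNRC6A (1.85 and 0.53) lies to the right of the line of equal enrichment, TNRC6B (-0.48 and 0.88) above it and TARBP2 (1.14 and 1.11) on it. Scaling on the spike-in probes moves all points by -2.58 along the horizontal and -1.48 along the vertical axis.

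Counted by comparison, the enrichment in miR-NC-overexpressing cells was called higher for 4 of the 10 genes (TNRC6A, TARBP2, AGO2 and AGO1) and lower for 4 (DROSHA, TNRC6B, DICER1 and AGO3), beside 33.5% and 45.3% of all measured genes. The AGO1 call was lost with the 75th percentile over all probes (log2 0.16), with the authors' processed values (log2 0.16) and without either miR-NC input array or the miR-NC RIP array numbered 2 (log2 from 0.12 to 0.18). The AGO3 call was lost relative to the median gene and with the mean of the probes, which turned it to 0.0074. The methods' t-test, adjusted or not, called neither the AGO1 nor the AGO3 enrichment in miR-NC-overexpressing cells. In miR-634-overexpressing cells, 3 were called higher (TARBP2, TNRC6B and TNRC6A) and 5 lower (DROSHA, DICER1, AGO1, AGO3 and AGO2), beside 36.1% and 48.3% of all genes. In both kinds of cells, the shares called among these genes were near those of all genes. In the input, 5 genes were called higher (TNRC6A, AGO2, AGO3, TNRC6C and DICER1) and 1 lower (TNRC6B), beside 11.6% and 12.1% of all genes, and the median log2 input change was 0.14, beside -0.01 for all genes. This is the comparison in which the 10 genes differed most from the background share, in the upward direction. The number called higher ranged from 2 to 5 when single arrays were left out, and only AGO2 and TNRC6A were called without each of the input arrays. With the spike-in scaling, which lowers every input change by 0.24, none of the 5 was called. In the RIP, 3 genes were called higher (TNRC6B, TNRC6C and AGO3) and 5 lower (AGO1, DROSHA, TNRC6A, DICER1 and AGO2), beside 30.9% and 46.5% of all genes, and relative to the median gene AGO2 and DICER1 were not called. Calls of the RIP change were also lost for AGO3 without any 1 RIP array, for AGO2 without either RIP array numbered 1 and for DICER1 without either RIP array numbered 2. The input change, the RIP change and the enrichments share arrays and are not independent of each other.

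By the root mean square difference of centered log2 levels over the 8 arrays, the genes with the pattern most like that of AGO2 were COL5A1 (0.0520), INHBA (0.0579) and NCLN (0.0611). These values are log2 differences per array, and the likeness rests on the 4 groups of 2 arrays.

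The partners of the machinery were taken from 5 lists of 56 genes, of which 43 were measured. In the change of enrichment, 13 were higher, 17 lower and 13 not called, and in the input change, 11 were higher, 5 lower and 27 not called. Of all measured genes, 28.1% were called higher and 43.2% lower in the change of enrichment, and 11.6% and 12.1% in the input change. The median log2 change of enrichment of the 43 genes was -0.11, beside -0.22 for all genes.

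Of the 12 genes for nuclear processing and export, all were measured, and 2 had a higher and 7 a lower change of enrichment, beside 28.1% and 43.2% of all genes. Relative to the median gene the counts were 4 higher and 4 lower, and with the spike-in scaling 9 were higher. XPO5, the carrier that exports the hairpin from the nucleus, had a 3.01-fold higher enrichment (log2 1.59, standard error 0.06, limma adjusted p = 3.71e-06). For XPO5, the log2 levels were -1.35 and -1.35 in the miR-NC input, -1.57 and -1.52 in the input with miR-634, -1.59 and -1.53 in the miR-NC RIP, and -0.18 and -0.15 in the miR-634 RIP. The miR-634 RIP arrays stood above all others. The input change of XPO5 was -0.19 (adjusted p = 0.0274), which was not called without any 1 of the input arrays (log2 from -0.21 to -0.17). A second XPO5 probe gave a change of enrichment of 1.62 and an input change of -0.40 (adjusted p = 0.00553 over probes), and another was not well above background on either miR-NC RIP array. The other gene that was higher was SRRT, named after its values were seen. DGCR8, which binds the primary transcript together with DROSHA, had a 1.64-fold lower enrichment (log2 -0.71, standard error 0.17, adjusted p = 0.00776), and KHSRP, an RNA-binding protein that aids the cutting of some hairpins, a 1.94-fold lower one (log2 -0.95, standard error 0.08, adjusted p = 7.04e-05). These changes turned to 0.39 and 0.15 with the spike-in scaling and were not called. On the main scale, DROSHA and DGCR8 thus both had a lower enrichment, while that of XPO5 was higher. The methods' t-test, adjusted or not, called neither the DROSHA nor the DGCR8 change. For DGCR8 the change was -0.51 from the first and -0.92 from the second array of each group. The DROSHA change was also not called relative to the median gene.

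Of 13 genes for Dicer partners, tailing and turnover, 8 were measured, of which 1 had a higher and 2 a lower change of enrichment (28.1% and 43.2% of all genes). The higher one was TSNAX, a subunit of the nuclease that clears the passenger strand, with a 3.87-fold change (log2 1.95, standard error 0.09, limma adjusted p = 5.88e-06) and 3.09 on the log2 scale from a dimmer probe. The TSNAX levels (log2) were -2.05 and -1.93 in the miR-NC RIP and -0.43 and -0.44 in the miR-634 RIP, and its input fell by 0.40 on the log2 scale (adjusted p = 0.00749), which was not called without the miR-NC input array numbered 1 (log2 -0.38). PRKRA, which like TARBP2 binds DICER1, had a lower enrichment (log2 -0.40, standard error 0.11, adjusted p = 0.0148), which was -0.19 and not called relative to the median gene (adjusted p = 0.171) and 0.70 with the spike-in scaling. The other gene that was lower was ERI1, named after its values were seen. LIN28A, LIN28B and TRIM71, which act in stem cells, were not well above background on any array.

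Of 11 chaperone genes that help to load argonaute, 10 were measured. The change of enrichment was higher for 6 and lower for 1, beside 28.1% and 43.2% of all genes, with a median of 0.28 on the log2 scale beside -0.22 for all genes, and it was higher for 8 and lower for 1 relative to the median gene. HSPA8, the constitutive HSP70, had a 2.73-fold higher enrichment (log2 1.45, standard error 0.09, limma adjusted p = 2.21e-05). Its log2 level was 2.76 and 2.84 in the miR-NC RIP and 4.17 and 4.16 in the miR-634 RIP, and its input hardly moved (log2 -0.09, adjusted p = 0.373). DNAJA2, a cochaperone of HSP70, had a higher enrichment (log2 0.44, standard error 0.09, adjusted p = 0.00522) together with a lower input (log2 -0.38, adjusted p = 0.0102), which was not called without any 1 of the input arrays (log2 from -0.40 to -0.36). On the main scale, the paralogs of cytosolic HSP90 went in opposite directions. HSP90AA1 had a 1.89-fold lower enrichment (log2 -0.92, standard error 0.06, adjusted p = 3.25e-05), with -0.90 and -0.85 from further probes, and HSP90AB1, named after its values were seen, a 1.96-fold higher one (log2 0.97, standard error 0.21, adjusted p = 0.00539). HSP90AA1 turned to 0.18 with the spike-in scaling and was not called, so that both paralogs were then positive. The HSP90AB1 change was not called by the methods' t-test, adjusted or not. It ranged from 0.73 to 1.20 when 1 array was left out. Probe sequences were not used here, so that cross-hybridization between paralogs was not examined.

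Of 16 silencing partners, which act with or downstream of the GW182 proteins, 13 were measured, and 4 had a higher and 7 a lower change of enrichment, where 28.1% and 43.2% of all genes did. CNOT7, a deadenylase of the CCR4-NOT complex, had a 2.15-fold lower enrichment (log2 -1.10, standard error 0.15, limma adjusted p = 0.000677), with -1.08 from a second probe, and a higher input (log2 0.47, adjusted p = 0.0235). On the second probe the input change was 0.19 and not called (adjusted p = 0.544 over probes), and the call of the first was lost with the mean of the probes (log2 0.33) and without either miR-634 input array (log2 0.47 and 0.46). AJUBA, a LIM-domain protein that binds argonaute, and DCP1A, a cofactor of the decapping enzyme, likewise had a lower enrichment (log2 -0.76 and -0.62, adjusted p = 0.0144 and 0.0014) and a higher input (log2 0.58 and 0.41, adjusted p = 0.0325 and 0.00904). The input change of AJUBA ranged from 0.35 to 0.81 when 1 array was left out, and its call was lost with the replicate block and without the miR-NC input array numbered 1 or either miR-634 input array. That of DCP1A was lost without the miR-NC input array numbered 2 or either miR-634 input array (log2 from 0.35 to 0.41). DCP2, the decapping enzyme, went the other way, with a 2.38-fold higher enrichment (log2 1.25, standard error 0.20, adjusted p = 0.00145) and an input that fell by 0.97 on the log2 scale (adjusted p = 0.00554). Its log2 level was -1.70 and -1.68 with miR-NC and -2.59 and -2.72 with miR-634 in the input, while its RIP arrays were at -2.91 and -3.36 in miR-NC-overexpressing cells and -2.82 and -2.88 in miR-634-overexpressing cells. The DCP2 change thus lay mainly in the input, and its RIP change was not called (log2 0.28, adjusted p = 0.106). The other genes that were higher were DDX6, PAN2 and CNOT2, named after their values were seen. AJUBA and DCP1A turned to 0.34 and 0.48 with the spike-in scaling, and CNOT7 was -0.00020 and not called. AJUBA was also not called relative to the median gene (log2 -0.54, adjusted p = 0.053) or without the miR-634 input array numbered 1. Of the 4 germline argonautes, PIWIL1, PIWIL3 and PIWIL4 were not well above background on any array and PIWIL2 on 1 array.

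**Figure D4:**
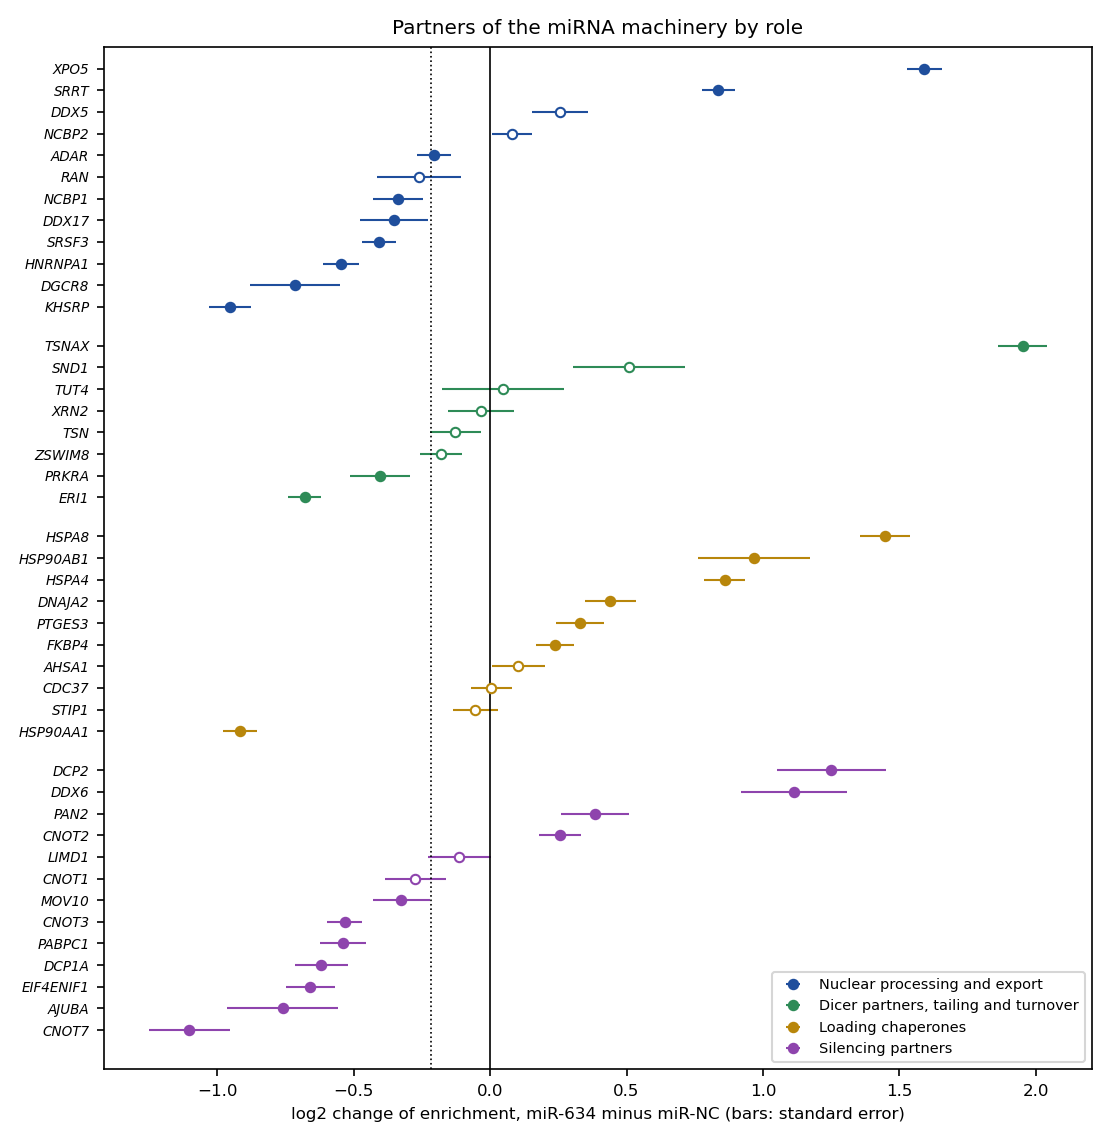
Log2 change of enrichment (horizontal axis) of the 43 measured partners by list, with standard errors (filled: called by limma; solid line: 0; dotted line: the median of all genes at -0.22). XPO5 (1.59) and TSNAX (1.95) stand apart within their lists, and 6 of 10 chaperones were called higher, beside 28.1% of all genes. Under spike-in scaling all values lie 1.102 to the right, so that DGCR8, KHSRP, PRKRA, HSP90AA1, AJUBA and DCP1A turn positive.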

How the data were processed

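RNA from the AGO2 RIP and total RNA of A431 cells was measured on 8 one-colour Agilent arrays, 2 in each of 4 groups. The files the authors deposited hold spot intensity as read by Agilent Feature Extraction (version 12.0.1.1 in the file headers, 9.1 in the labels), with local background subtracted by that software and no normalization between arrays. A series table of log2 values processed by the authors was used only as an alternative. Its columns had medians from -0.44 to 0.88 and correlated with the log2 intensities centred per probe at a Pearson r from 0.985 to 1.000 across probes. The rule by which they were centred is not given in the sources used here.

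Spots that were controls or outliers were dropped (none was saturated), the mean over the spots of each probe was taken to log2, and the 75th percentile over the 16808 of 58201 probes (28.9%) well above background on all 8 arrays was subtracted per array. RefSeq accessions were held by 33080 probes, and 31104 of these received a symbol from RefSeq (GRCh38.p14). No gene coordinates of that build are given because the array was designed on another one. The brightest measured probe stood for a gene. Comparisons were tested, two-sided, with limma (version 3.58.1, in R 4.3.3) by lmFit over 4 group means and eBayes. P-values were adjusted by Benjamini-Hochberg over 10959 genes, or over all measured probes where single probes are given, with a threshold of 0.05. Fits and scaling were tested on simulated data.

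The 10 genes and the lists of partners were chosen by function with earlier results of these data known. Partners named are, in the change of enrichment and in the input change, the 3 genes with the largest rise and the 3 with the largest fall among those called with the same sign in both array numbers, and DGCR8, XPO5 and PRKRA. The genes nearest to AGO2 are the 3 with the smallest root mean square difference.

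The alternatives were the 75th percentile over all probes, median scaling, quantile normalization, scaling on 8 spike-in probes, centring on the median gene, normexp with an offset of 50 and quantile normalization (on the median spot signal), the authors' processed values, the mean of the probes, every probe as an entry of its own, no filter or one on the input arrays alone, an intensity trend, a replicate block, the methods' t-test on the same values and each array left out in turn. The t-test is the one the methods name for the study in general. For the arrays, the methods name a fold cutoff and no test. All arrays were on 1 slide and began in 1 scan, so that no slide block was fitted. The number of arrays limits the precision. Python 3.11.15 with pandas 2.3.3 and matplotlib 3.10.9 served for tables and plots.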

Additional observations from a re-analysis of the deposited data

Results flagged for a closer look

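The difference in enrichment between miR-634- and miR-NC-overexpressing cells, tested as an interaction term with limma, passed the threshold for 6 of the 10 genes of the machinery (1 higher and 5 lower, beside 28.1% and 43.2% of all measured genes). It also passed for the 12 named partners, most of which were named because their called changes were the largest, so that their number is no result. On the log2 scale, the change of enrichment was -0.79 for AGO1, -0.59 for AGO2, -1.31 for TNRC6A, 1.36 for TNRC6B, -0.35 for DICER1 and -0.56 for DROSHA. For these partners it was -0.71 for DGCR8, -0.95 for KHSRP, 1.59 for XPO5, -0.40 for PRKRA, 1.95 for TSNAX, -0.92 for HSP90AA1, 1.45 for HSPA8, 0.44 for DNAJA2, -0.76 for AJUBA, -1.10 for CNOT7, -0.62 for DCP1A and 1.25 for DCP2. All 12 lower values except those of TNRC6A and CNOT7 turned positive with the spike-in scaling, as given in the next section.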

How the results depend on the processing

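The values of the 10 genes were recomputed under 23 alternatives. Of 1150 such values, 987 kept their direction and their side of the threshold, 84 kept only the direction, 10 were newly called and 69 turned. The intensity trend, the replicate block, the t-test and every probe as an entry leave the log2 values unchanged, so that no direction could turn. The same holds where the array left out is not part of the comparison. These counts are therefore no measure of robustness. Within each comparison, the spike-in scaling, the median scaling, the 75th percentile over all probes and the centring add a constant to all genes. For the values that moved under other alternatives, the cause was not tested. With the spike-in scaling, member counts became 0 higher and 10 lower for the enrichment in miR-NC-overexpressing cells (main 4 and 4), 0 higher and 9 lower for that in miR-634-overexpressing cells (3 and 5), 6 higher and 0 lower for the change of enrichment (1 and 5), 0 higher for the input change (5), and 7 higher and 0 lower for the RIP change (3 and 5). The log2 enrichment in miR-NC-overexpressing cells then turned to -2.41 for AGO1, -2.38 for AGO2, -1.44 for TARBP2, -0.74 for TNRC6A and -2.53 for TNRC6C, and that in miR-634-overexpressing cells to -0.37 for TARBP2, -0.95 for TNRC6A, -0.61 for TNRC6B and -1.42 for TNRC6C. The change of enrichment turned to 0.32 for AGO1, 0.51 for AGO2, 0.93 for AGO3, 0.99 for AGO4, 0.76 for DICER1, 0.55 for DROSHA, 1.07 for TARBP2, 0.34 for AJUBA, 0.48 for DCP1A, 0.39 for DGCR8, 0.18 for HSP90AA1, 0.15 for KHSRP and 0.70 for PRKRA. The input change turned to -0.17 for AGO1, -0.15 for AGO4, -0.049 for DICER1 and -0.028 for DGCR8, and the RIP change to 0.14 for AGO1, 0.72 for AGO2, 0.84 for AGO4, 0.71 for DICER1, 0.27 for DROSHA, 0.74 for TARBP2 and 0.30 for TNRC6A. Centring on the median gene left 3 genes lower in the change of enrichment and 3 in the RIP change. It turned the enrichment of AGO4 in miR-NC-overexpressing cells to 0.064, the change of enrichment to 0.046 for AGO3, 0.099 for AGO4 and 0.18 for TARBP2, and the RIP change to 0.039 for AGO2, 0.15 for AGO4, 0.023 for DICER1 and 0.053 for TARBP2. With the 75th percentile over all probes and with the authors' processed values, 3 genes were higher in the input change and 3 lower in the RIP change. Both turned the change of enrichment of TARBP2 to 0.084 and the RIP change to 0.033 for AGO2, 0.15 for AGO4, 0.017 for DICER1, and 0.047 and 0.046 for TARBP2. In the same order, they put the input change of DROSHA at 0.021 and 0.020 and the change of enrichment of AGO4 at 0.0016 and 0.0020. Neither setting called the change of enrichment of DICER1 or PRKRA. Median scaling left 3 genes lower in the RIP change and turned the change of enrichment of TARBP2 to 0.011 and the RIP change of AGO4 to 0.025. That RIP change of AGO4 was 0.018 with normexp and quantile normalization and 0.19 with quantile normalization alone, which put the change of enrichment of TNRC6C at -0.00028. The mean of the probes turned AGO3 to 0.0074 in the enrichment in miR-NC-overexpressing cells and to -0.023 in the RIP change. With it, the AGO3 change of enrichment was called lower (log2 -0.37). The filter on the input arrays only left 3 genes higher in the input change, and no filter left 2, with 3 lower in the RIP change. The methods' t-test after Benjamini-Hochberg adjustment called 2 genes lower in the enrichment in miR-NC-overexpressing cells, 1 higher and 0 lower in the input change, and 1 higher and 3 lower in the RIP change, and unadjusted it called 1 higher in the RIP change. Even unadjusted, the t-test did not call the change of enrichment of DROSHA, DGCR8, AJUBA, DNAJA2 or HSP90AB1.

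When single arrays were left out, the number of genes higher in the input change ranged from 2 to 5. The RIP change of AGO4 ranged from -0.29 to 0.24, its change of enrichment from -0.38 to 0.14 and its enrichment in miR-NC-overexpressing cells from -0.32 to 0.20. The input change of DROSHA ranged from -0.11 to 0.043, the change of enrichment of TARBP2 from -0.13 to 0.061, and for TNRC6C the change of enrichment ranged from -0.086 to 0.10 and the enrichment in miR-NC-overexpressing cells from -0.036 to 0.15.

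Deviations of arrays with the same replicate number correlated weakly between groups (from -0.04 to 0.08). The highest values were those between input and RIP of the same cells (0.07 with miR-NC and 0.08 with miR-634). Whether arrays of the same number shared a lysate cannot be told from these correlations, which technical spread can keep low. With the replicate number as a block, 4 genes were higher in the input change, DICER1 being lost, and the other member counts did not change.

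Over all measured genes, the number lower in the input change was 1329 and became 659 with the 75th percentile over all probes and 664 with the authors' processed values. Leaving out single input arrays gave 394 to 517 higher (main 1273) and 549 to 688 lower. The methods' t-test after adjustment gave 159 higher and 245 lower in the input change, 2961 lower in the change of enrichment (main 4730) and 3092 lower in the RIP change (main 5098). With no filter, 9985 genes were higher in the enrichment in miR-NC-overexpressing cells (main 3676), 9073 in that in miR-634-overexpressing cells (main 3961), 8658 lower in the change of enrichment, 370 higher and 570 lower in the input change and 10430 lower in the RIP change. Counted over probes, these were 6106, 6011, 7315 for the change of enrichment and 8176 for the RIP change. With the spike-in scaling, 57 were higher and 10754 lower (main 4965) in the enrichment in miR-NC-overexpressing cells, 665 and 9230 (main 5291) in that in miR-634-overexpressing cells, 7315 (main 3079) and 176 in the change of enrichment, 25 and 845 in the input change, and 7273 (main 3385) and 357 in the RIP change. Dim probes such as that of AGO4 limit what can be detected, since 2 arrays a group leave their spread wide.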
